A study of Mus musculus with 12 samples.

Results

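The genes described here encode Jumonji C (JmjC) proteins, TET enzymes and other oxygenases that use 2-oxoglutarate, read out in RAW264.7, a line of mouse cells that resemble macrophages. They are a list of 37 genes of this enzyme class, chosen by name, out of 30472 genes that the array's annotation names. On the array, 35 of them had a probe set of their own. The probe sets of Plod3 and Alkbh1 are annotated to a second gene as well, so neither is given a value. Of the 35, 34 lay above the median signal of all probe sets in at least 3 arrays and were tested, and Tet1 did not. On all 12 arrays 33 of the 34 were above that median.

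RNA was hybridised to 12 Affymetrix arrays, 3 for each of 4 media, after 24 h of culture. Tumour cell medium was mixed in at 50%. In KO medium it came from PyMT-41C cells in which JMJD6 had been knocked out. In SCR medium with CSH, the conditioned medium came from SCR PyMT-41C cells and CSH, described by the labels as a block of the ANXA-1 receptor, was added. In SCR medium it came from the same SCR cells with no CSH, and in normal medium no tumour cell medium was present. All 4 groups are RAW264.7 cells, for which the labels name no genetic change, and the JMJD6 knockout is in the cells that made the medium. No group received CSH in normal medium, and the labels do not say whether the knockout is 1 clone or whether each replicate had its own culture. The p-values therefore reflect only how far these arrays scatter, and that scatter may be technical.

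Values are log2 signals normalised by the authors with RMA, and a difference of 1 is a 2-fold change. Levels are given as mean ± SD (n = 3 arrays) and differences with the standard error (SE) of a limma fit over all 12 arrays. The call threshold was an adjusted p of 0.05, with the Benjamini-Hochberg method applied across the 18122 genes that were tested. Array medians ran from 5.40 to 5.52. The level of one gene's probe set is not compared with that of another. The number of arrays limits the precision. All 7 macrophage markers looked for (Csf1r, Adgre1, Cd68, Itgam, Fcgr3, Lyz2 and Spi1) passed the filter on low values in these cells, with group means from 9.20 to 17.83. Of 20 markers of T cells, B cells, mammary epithelium, fibroblasts and endothelium, 15 had a probe set, with group means from 4.14 to 5.54. Of these 15, 1 (the keratin gene Krt8) passed the filter, and it was called in 0 comparisons. The log2 signals of the 7 macrophage markers summed to 91.79 in KO medium, 92.37 in SCR medium with CSH and 91.76 in SCR medium, against 94.31 in normal medium. Such a sum of log2 signals is not an amount of macrophage RNA, and the markers did not move together. In SCR medium against normal medium, by limma, Csf1r, the receptor for the macrophage growth factor CSF1 (-1.79), Adgre1 (-1.45) and Cd68 (-0.15) fell, the integrin gene Itgam rose by 0.97, and Lyz2 (0.08), Spi1 (-0.09) and Fcgr3 (-0.11) did not pass. The part of these markers in the results below was not tested. RNA was taken from whole cultures, so fewer cells of a type and less RNA per cell cannot be told apart.

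As background, 2-oxoglutarate oxygenases use molecular oxygen, ferrous iron and the Krebs cycle metabolite 2-oxoglutarate to add a hydroxyl group to proteins, nucleic acids or lipids. When the hydroxyl lands on a methyl group of a histone, of DNA or of RNA, the mark is oxidised or lost, which makes many members erasers of chromatin and RNA marks. Other members act on proline, lysine, histidine or asparagine, among them the EGLN and FIH enzymes that mark the hypoxia factor HIF for destruction or inactivity. In macrophages, Kdm6b (JMJD3) is known as an inflammation-induced histone demethylase and Tet2 as a brake on inflammatory genes such as Il6.

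The promoters of 4 genes are shown first. They are Kdm4a and Tet2, which rose and fell most in SCR medium, and Egln2 and Egln3, whose enzymes act on HIF and which were called in opposite directions. Each window runs from 250 bases before to 50 bases after a transcript start of RefSeq (build GRCm38.p6), on the strand of the gene. RefSeq promoter windows were at hand for 31 of the 37 genes, and where a gene has several the first listed was used. Capitals mark the letters ACGTG or GCGTG, which are the core of the HIF binding element, the AP-1 element TGANTCA and the cAMP response element TGACGTCA, searched on both strands.
Kdm4a, chr4:118179994-118180293, minus strand: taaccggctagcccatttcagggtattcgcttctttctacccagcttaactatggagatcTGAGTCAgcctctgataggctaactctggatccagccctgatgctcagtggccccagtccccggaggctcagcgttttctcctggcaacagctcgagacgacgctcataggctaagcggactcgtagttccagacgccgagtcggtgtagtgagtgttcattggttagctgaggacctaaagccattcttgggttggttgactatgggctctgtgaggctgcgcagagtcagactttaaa
Tet2, chr3:133544341-133544640, minus strand: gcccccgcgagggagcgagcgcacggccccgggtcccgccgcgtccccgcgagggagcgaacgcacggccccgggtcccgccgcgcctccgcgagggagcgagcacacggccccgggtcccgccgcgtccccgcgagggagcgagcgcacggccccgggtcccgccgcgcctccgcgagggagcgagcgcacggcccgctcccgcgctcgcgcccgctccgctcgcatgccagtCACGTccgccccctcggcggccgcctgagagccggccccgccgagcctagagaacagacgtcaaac
Egln2, chr7:27166753-27167052, minus strand: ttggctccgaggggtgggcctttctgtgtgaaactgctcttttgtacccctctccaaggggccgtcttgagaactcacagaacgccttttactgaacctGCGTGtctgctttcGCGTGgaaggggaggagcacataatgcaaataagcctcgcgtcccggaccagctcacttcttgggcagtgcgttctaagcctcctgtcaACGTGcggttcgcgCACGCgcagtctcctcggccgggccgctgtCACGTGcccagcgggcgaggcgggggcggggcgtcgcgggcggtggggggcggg
Egln3, chr12:54203825-54204124, minus strand: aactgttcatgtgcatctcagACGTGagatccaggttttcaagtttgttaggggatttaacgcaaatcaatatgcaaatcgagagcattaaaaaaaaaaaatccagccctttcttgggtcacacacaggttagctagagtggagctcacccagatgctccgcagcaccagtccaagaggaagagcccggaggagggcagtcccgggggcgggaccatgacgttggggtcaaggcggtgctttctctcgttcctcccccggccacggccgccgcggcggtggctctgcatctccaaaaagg
The Kdm4a window holds 1 AP-1 element, which starts at position -190 from the transcript start, and no other motif searched. In the Tet2 window there is 1 ACGTG, at -16, written on the opposite strand. The Egln2 window holds 3 matches to ACGTG, at -48, -4 and -3, of which the last 2 overlap in the palindrome CACGTG, and 3 to GCGTG, at -151, -137 and -34. Egln3 has 1 ACGTG, at -229. At least 1 of the HIF core letters was present in 22 of the 31 windows (71%), against 43.8% of 27025 windows of all genes. The GC content also differed, with a median of 61% in the 31 windows and 52.7% in all, and its part in the share was not tested. The AP-1 element was in 1 of 31 windows (3.23%), against 7.93% of all, and the cAMP response element, in Phf8, in 1 of 31 (3.23%), against 1.88%. A match of letters is a description and not a bound site.

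SCR medium was set against normal medium to ask how tumour cell medium alters these genes. Among the 34 tested, 11 rose, 7 fell and 16 did not pass. That is 52.9% of them, where 35.2% of all 18122 genes tested were called in this comparison (19.3% higher and 15.8% lower). The arrays of the 2 media did not overlap for 19 of the 34, against 43.3% of all genes, and 21 of the 34 had an unadjusted p below 0.05, against 42.6% of all genes. The median difference over the 34 was 0.033, and 0.017 over all genes. The changes were small, and 4 of the 34 differed by at least 0.5 on the log2 scale, namely Kdm4a, Tet2, Egln3 and Kdm3b. The difference was called in every fit that left out 1 array for 12 of the 18 genes, which are the 12 with the smallest p and are given by array below.

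**Figure D1:**
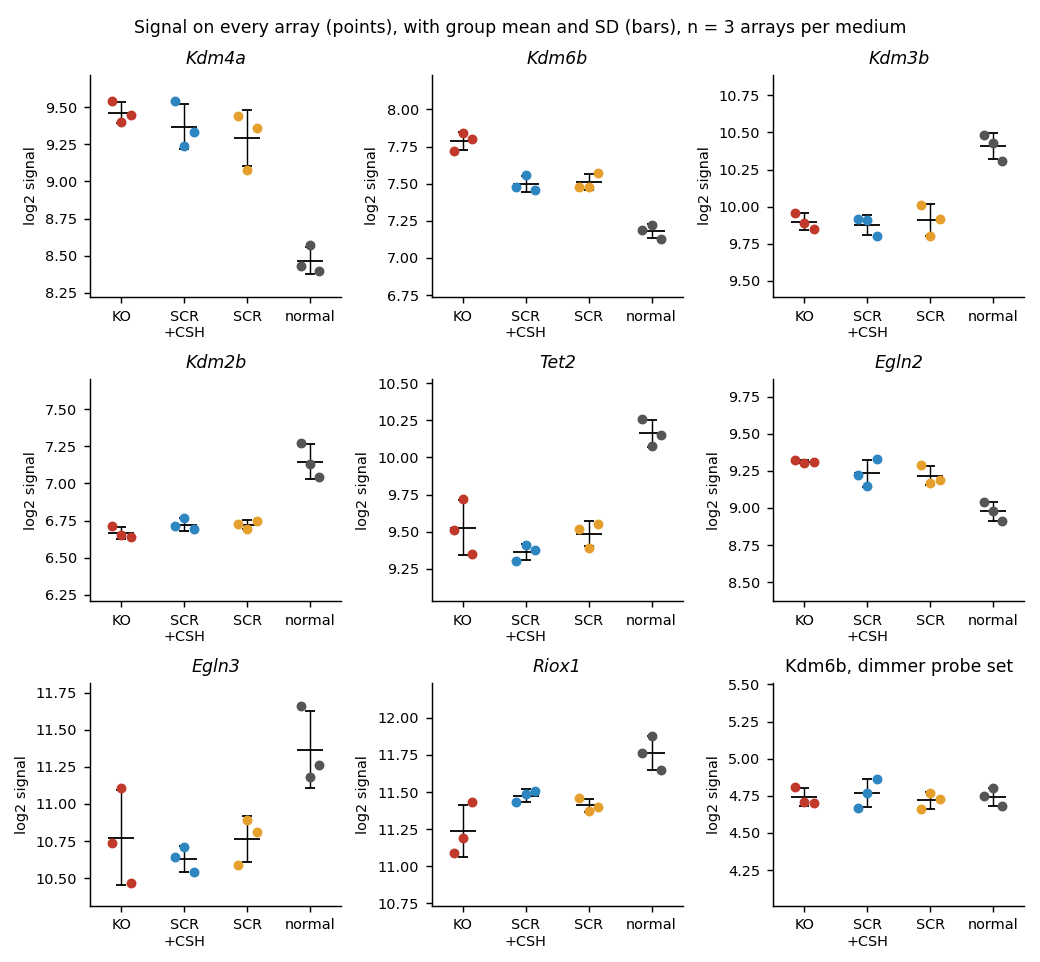
Log2 signal (y axis, each panel spanning 1.5 units) on each array (points) in KO medium, SCR medium with CSH, SCR medium and normal medium, with the mean and SD of 3 arrays as bars. Kdm4a lay between 9.08 and 9.54 in conditioned media, against 8.40 to 8.57 in normal medium, and the dimmer Kdm6b probe set stayed between 4.66 and 4.86 throughout.

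Among the histone demethylases, Kdm4a rose most. It encodes an eraser of trimethyl marks on histone H3 (GRCm38.p6, chromosome 4, 118136957 to 118180090). Its signal was 9.44, 9.08 and 9.36 in SCR medium, against 8.43, 8.57 and 8.40 in normal medium. The 2 media did not overlap, and SCR replicate 3 was the lowest of its group. The difference was 0.83 (SE 0.10, adjusted p = 3.39e-05 by limma), a 1.77-fold rise. Kdm6b, which removes the repressive methyl mark set by polycomb (chromosome 11, 69398508 to 69420367), read 7.48, 7.48 and 7.57 in SCR medium, against 7.19, 7.22 and 7.13 in normal medium. Each SCR array lay above each normal array, by a modest margin. The difference was 0.33 (SE 0.06, adjusted p = 0.000481 by limma). A second Kdm6b probe set, which the annotation lists under a clone name that RefSeq gives as a synonym of Kdm6b, stood at 4.72 ± 0.06 in SCR medium and 4.74 ± 0.06 in normal medium. It was below the array median on all arrays, so the Kdm6b result rests on 1 probe set. Averaging in this flat second set shrinks any difference by arithmetic, so the mean of both probe sets is no separate check. With that mean the difference was 0.15 (adjusted p = 0.0373 by limma).

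Close relatives among the erasers did not all move the same way. Kdm3b, a demethylase of repressive lysine marks (chromosome 18, 34777008 to 34839370), read 10.01, 9.80 and 9.92 in SCR medium, against 10.48, 10.43 and 10.31 in normal medium. The groups were well apart, with a difference of -0.50 (SE 0.07, adjusted p = 0.000128 by limma). Its close relatives Kdm3a, at 11.63 ± 0.08 in SCR medium and 11.52 ± 0.09 in normal medium, and Jmjd1c, at 11.53 ± 0.07 and, in normal medium, 11.46 ± 0.06, did not pass. Kdm2b, whose CpG-binding protein brings polycomb to unmethylated promoters, read 6.73, 6.69 and 6.75 in SCR medium, against 7.27, 7.13 and 7.04 in normal medium. It fell by 0.42 (SE 0.06, adjusted p = 0.000146 by limma), with the SCR arrays close together. Its paralog Kdm2a was higher, at 10.62 ± 0.07 in SCR medium and 10.40 ± 0.08 in normal medium (difference 0.22, adjusted p = 0.0327 by limma).

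The PHD-finger demethylases also differed among themselves. Phf8 (X chromosome), an eraser of repressive lysine marks at active promoters, read 9.10, 8.97 and 9.12 in SCR medium, against 9.64, 9.35 and 9.37 in normal medium, where replicate 2 was highest. It fell by 0.39 (SE 0.08, adjusted p = 0.0014 by limma). Phf2 read 9.90, 9.86 and 9.87 in SCR medium, against 10.18, 10.12 and 10.11 in normal medium. All SCR arrays lay below all normal arrays, and it fell by 0.26 (SE 0.06, adjusted p = 0.00399 by limma). Kdm7a, the third gene of this family, was higher by 0.35 (SE 0.10, adjusted p = 0.0125 by limma).

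Smaller rises were called for Kdm6a (0.23), Kdm5a (0.20) and Kdm5b (0.28), which encode the polycomb-mark eraser UTX and erasers of the methyl mark of active promoters. With Kdm7a, Kdm2a and the RNA demethylase gene Alkbh5 (0.21), they are the 6 calls that were lost when some single array was left out. The adjusted p of Kdm7a then reached 0.0576, that of Kdm6a 0.0703 and that of Kdm5a 0.0885, each without normal replicate 4, SCR replicate 1 or SCR replicate 4. The call of Kdm2a (up to 0.131) and that of Kdm5b (up to 0.174) were lost without any of these or without normal replicate 3. For Alkbh5 (up to 0.14), each array of the comparison except SCR replicate 3 was needed. Jarid2, a polycomb subunit with no demethylase activity of its own (-0.14, adjusted p = 0.0653), and Kdm4c (-0.18, adjusted p = 0.061) did not pass, although their arrays did not overlap between the media. Jarid2 was called without normal replicate 4, at an adjusted p of 0.028. Kdm4b (-0.07) did not pass either. By limma, then, 7 of 16 histone demethylases and relatives rose, 4 fell and 5 did not pass, where 19.3% of all genes rose and 15.8% fell. The rises of Kdm2a, Kdm5a, Kdm5b, Kdm6a and Alkbh5 were also lost with median centring and with the 6 arrays of the comparison alone. In each of these fits 6 of the 34 tested genes rose and 7 fell, in place of 11 and 7.

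Of the other JmjC genes, the ribosomal oxygenases went opposite ways. Riox1 encodes a nucleolar histidyl hydroxylase of a ribosomal protein. It read 11.46, 11.37 and 11.40 in SCR medium, against 11.76, 11.88 and 11.65 in normal medium, and fell by 0.35 (SE 0.09, adjusted p = 0.00555 by limma). Riox2 (MINA), which acts on another ribosomal protein, read 8.47, 8.25 and 8.22 in SCR medium, against 7.98, 8.09 and 8.06 in normal medium. It rose by 0.27 (SE 0.07, adjusted p = 0.00688 by limma), and SCR replicate 1 stood highest. Hif1an, the asparaginyl hydroxylase FIH that blunts HIF, read 7.17, 7.25 and 7.39 in SCR medium, against 6.96, 7.0 and 6.80 in normal medium, a rise of 0.35 (SE 0.09, adjusted p = 0.00985 by limma).

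Jmjd6 itself, a lysyl hydroxylase of splicing factors (chromosome 11, 116837432 to 116843767), did not pass. Its signal was 9.75, 9.87 and 9.90 in SCR medium, against 10.16, 9.93 and 9.89 in normal medium, and the groups overlapped. The difference was -0.15, with a 95% interval from -0.42 to 0.12 (adjusted p = 0.392 by limma). Jmjd4 (0.07), which modifies a translation termination factor, Jmjd8 (0.11), a protein of the endoplasmic reticulum, and Kdm8 (0.05), an arginyl hydroxylase, did not pass. Kdm8 lay close to the array medians, with group means from 5.47 to 5.60.

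Tet2, which oxidises methylcytosine in DNA (chromosome 3, 133463677 to 133545136), fell most of all. It read 9.52, 9.39 and 9.55 in SCR medium, against 10.26, 10.08 and 10.15 in normal medium. The difference was -0.68 (SE 0.09, adjusted p = 6.49e-05 by limma), which is 0.63 of the normal level. Tet3 did not pass, at 9.20 ± 0.07 in SCR medium and 9.33 ± 0.06 in normal medium (adjusted p = 0.229 by limma). Tet1 stayed under the filter, at 5.09 ± 0.16 in SCR medium and 5.05 ± 0.02 in normal medium, below the array median on all 12 arrays.

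The 3 HIF prolyl hydroxylases, which let HIF be degraded when oxygen is present, behaved in 3 ways. Egln3 (chromosome 12, 54178981 to 54203874), itself known as a HIF target, read 10.59, 10.89 and 10.81 in SCR medium, against 11.66, 11.18 and 11.26 in normal medium. It fell by 0.60 (SE 0.15, adjusted p = 0.00785 by limma), and normal replicate 2 stood above the rest. Egln2 (chromosome 7, 27158658 to 27166802) read 9.29, 9.17 and 9.19 in SCR medium, against 9.04, 8.98 and 8.91 in normal medium, a rise of 0.24 (SE 0.06, adjusted p = 0.00915 by limma). For Egln1, the main oxygen sensor of the family, the arrays overlapped, at 10.45, 10.53 and 10.67 in SCR medium, against 10.84, 10.51 and 10.48 in normal medium. The difference of -0.06 had a 95% interval from -0.31 to 0.19.

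None of the 4 collagen hydroxylases tested among these genes was called in SCR medium, where 35.2% of all genes were. P3h1, a collagen prolyl hydroxylase outside this list, was called higher there and is given with the pathway lists. P4ha1 (-0.14) and P4ha2 (0.02), catalytic subunits of collagen prolyl hydroxylase, and Plod1 (-0.05) and Plod2 (-0.34, adjusted p = 0.0648), lysyl hydroxylases, did not pass by limma. At an unadjusted p below 0.05, 1 of the 4 was counted, Plod2. It was called without SCR replicate 4, at an adjusted p of 0.0253. Of the RNA demethylases, Fto (0.13, adjusted p = 0.126) did not pass, and was called without SCR replicate 3 at 0.0289. In a pattern chosen after the values were seen, Egln3, Egln1 and Plod2 were each highest of their group in normal replicate 2 and in KO replicate 2. Egln1 reached 10.84 and 10.90 there, and Plod2 reached 11.26 and 10.94. The same held for other genes of the list, among them Jmjd6, Kdm3a, Tet2, Tet3, P4ha1 and Plod1, though not for all. The pattern is thus not particular to Egln3, Egln1 and Plod2, and its share over all genes was not counted.

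**Figure D2:**
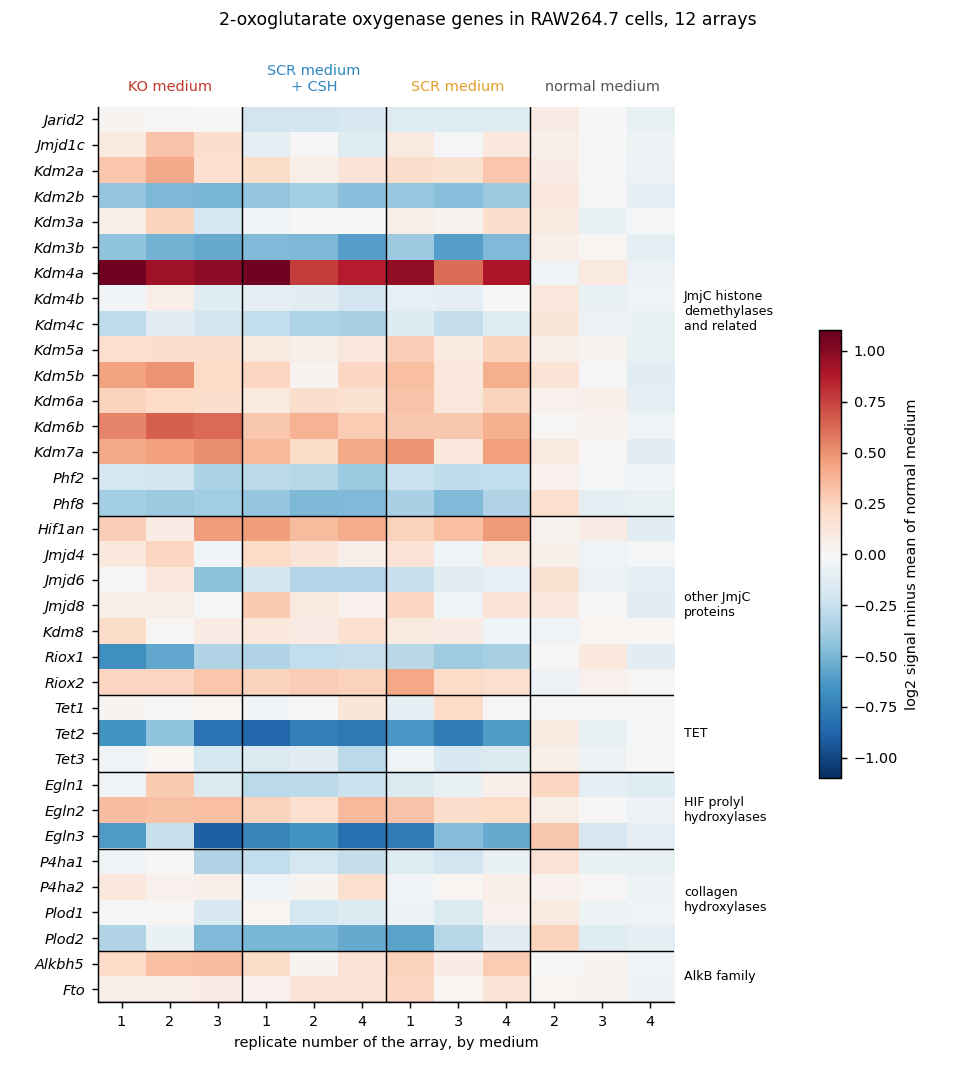
Log2 signal of the 35 genes with a probe set, minus the gene's mean in normal medium (colour, red higher and blue lower), for each array (columns, by medium) and gene (rows, grouped by role). Kdm4a is red and Tet2, Kdm2b, Kdm3b and Egln3 are blue on the 9 arrays of conditioned medium.

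The other conditioned media were also set against normal medium. These comparisons share the normal arrays with each other and with the comparison above, so their values are given side by side and no overlap is drawn from them. In KO medium 12 of the 34 genes rose and 8 fell, that is 58.8%, against 39.1% of all genes (21.4% higher and 17.6% lower). The arrays did not overlap for 20 of them, against 49.8% of all genes, and 21 had an unadjusted p below 0.05, against 45.9%. With CSH in SCR medium 6 rose and 10 fell, that is 47.1%, against 35.8% of all genes (20.9% higher and 14.9% lower). Here 25 did not overlap, against 46.8% of all genes, and 21 had an unadjusted p below 0.05, against 43.4%. The median difference over the 34 was 0.04 in KO medium and -0.045 with CSH, beside 0.007 and 0.033 over all genes. In KO medium 6 of the 34 differed by at least 0.5 on the log2 scale, and with CSH 5 did.

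Kdm4a read 9.54, 9.40 and 9.45 in KO medium and 9.54, 9.24 and 9.33 with CSH, all above the normal arrays. The difference from normal medium was 1.00 (SE 0.10, adjusted p = 4.85e-06) in KO medium and 0.90 (SE 0.10, adjusted p = 1.74e-05) with CSH by limma. Kdm6b read 7.72, 7.84 and 7.80 in KO medium and 7.48, 7.56 and 7.46 with CSH, all above the normal arrays. It rose by 0.61 (SE 0.06, adjusted p = 2.49e-06) in KO medium and by 0.32 (SE 0.06, adjusted p = 0.000622) with CSH by limma. Tet2 read 9.51, 9.72 and 9.35 in KO medium and 9.30, 9.41 and 9.38 with CSH, all below the normal arrays. It fell by 0.64 (SE 0.09, adjusted p = 8.08e-05) in KO medium and by 0.80 (SE 0.09, adjusted p = 1.82e-05) with CSH. Kdm3b read 9.96, 9.89 and 9.85 in KO medium and 9.92, 9.91 and 9.80 with CSH, which was -0.51 and -0.53 from normal medium. Kdm2b read 6.71, 6.65 and 6.64 in KO medium and 6.71, 6.77 and 6.69 with CSH, which was -0.48 and -0.42 from normal medium. For both genes each array of these media lay below each normal array. Phf8 read 9.08, 9.05 and 9.07 in KO medium (-0.39) and 9.03, 8.96 and 8.97 with CSH (-0.47), and Phf2 read 9.94, 9.93 and 9.79 (-0.25) and 9.84, 9.82 and 9.73 (-0.34).

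Among genes of hydroxylases, Riox1 read 11.09, 11.19 and 11.43 in KO medium and 11.43, 11.49 and 11.51 with CSH. Its arrays were the most spread in KO medium, where it fell by 0.53 (SE 0.09, adjusted p = 0.000266 by limma), and with CSH it fell by 0.29 (adjusted p = 0.0185). That last call was lost without normal replicate 3 or CSH replicate 1, at an adjusted p of up to 0.0779. Riox2 read 8.28, 8.28 and 8.35 in KO medium and 8.29, 8.31 and 8.30 with CSH, a rise of 0.26 in both. Egln3 read 10.74, 11.11 and 10.47 in KO medium and 10.64, 10.71 and 10.54 with CSH, and fell by 0.59 (adjusted p = 0.00762) and 0.74 (adjusted p = 0.00221). KO replicate 2 came closest to the normal arrays. Egln2 read 9.32, 9.30 and 9.31 in KO medium and 9.22, 9.15 and 9.33 with CSH, and rose by 0.33 and 0.26. Hif1an read 7.19, 7.0 and 7.38 in KO medium, which overlapped the normal arrays, and 7.38, 7.27 and 7.33 with CSH. Its rise of 0.27 in KO medium (adjusted p = 0.0344 by limma) was lost without normal replicate 2 or 4 or KO replicate 1 or 3, at an adjusted p of up to 0.155. The rise of 0.41 with CSH (adjusted p = 0.00394) was called in every fit that left out 1 array. Directly, KO medium minus SCR medium with CSH was -0.14 for Hif1an (adjusted p = 0.512 by limma), which did not pass.

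Plod2, Jmjd1c and Jarid2 passed against normal medium in one of these media, and Kdm4c in both. Plod2 fell by 0.52 with CSH (adjusted p = 0.00764 by limma), and stood at -0.30 in KO medium (adjusted p = 0.0982), where it was called without KO replicate 2 at 0.0358. Jmjd1c read 11.56, 11.78 and 11.66 in KO medium (0.20, adjusted p = 0.0335) and 11.36, 11.46 and 11.33 with CSH (-0.08, adjusted p = 0.42). The KO call was lost without normal replicate 3 or 4 or KO replicate 2 or 3, at an adjusted p of up to 0.152. Kdm4c read 8.41, 8.57 and 8.49 in KO medium (-0.20, adjusted p = 0.0358) and 8.42, 8.35 and 8.34 with CSH (-0.32, adjusted p = 0.00295), and the first of these calls was lost without normal replicate 2 or KO replicate 1 or 3, at up to 0.164. Jarid2 stood at 0.02 from normal medium in KO medium (adjusted p = 0.847) and at -0.19 with CSH (adjusted p = 0.0125), lost without normal replicate 2 at 0.0633. A call in one medium and none in another does not show that the media differ. Directly, KO medium minus SCR medium with CSH was 0.23 for Plod2 (adjusted p = 0.438) and 0.12 for Kdm4c (adjusted p = 0.44) by limma. Neither passed, which with 3 arrays per medium does not show that the media are equal. The direct values of Jmjd1c and Jarid2 are given below.

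The remaining calls in KO medium were rises of Kdm7a (0.46), Kdm5b (0.39), Kdm2a (0.30), Alkbh5 (0.30), Kdm6a (0.22) and Kdm5a (0.19). Those of Kdm6a and Kdm5a were lost without some single arrays, at an adjusted p of up to 0.0691 (without normal replicate 4 or KO replicate 1) and 0.101 (without normal replicate 4 or any KO array). With CSH, Kdm7a rose by 0.33 (adjusted p = 0.0192), lost without normal replicate 4 or CSH replicate 1 or 4 at up to 0.0819. Kdm5b (0.16), Kdm2a (0.14), Alkbh5 (0.13), Kdm6a (0.15) and Kdm5a (0.10) did not pass there by limma. Jmjd6 read 9.98, 10.12 and 9.54 in KO medium and 9.78, 9.67 and 9.67 with CSH. KO replicate 3 was the lowest array of all for Jmjd6, and the differences from normal medium were -0.11 (adjusted p = 0.53) and -0.29 (adjusted p = 0.0936). With the 6 arrays of that comparison alone, Jmjd6 passed with CSH, at an adjusted p of 0.0311.

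**Figure D3:**
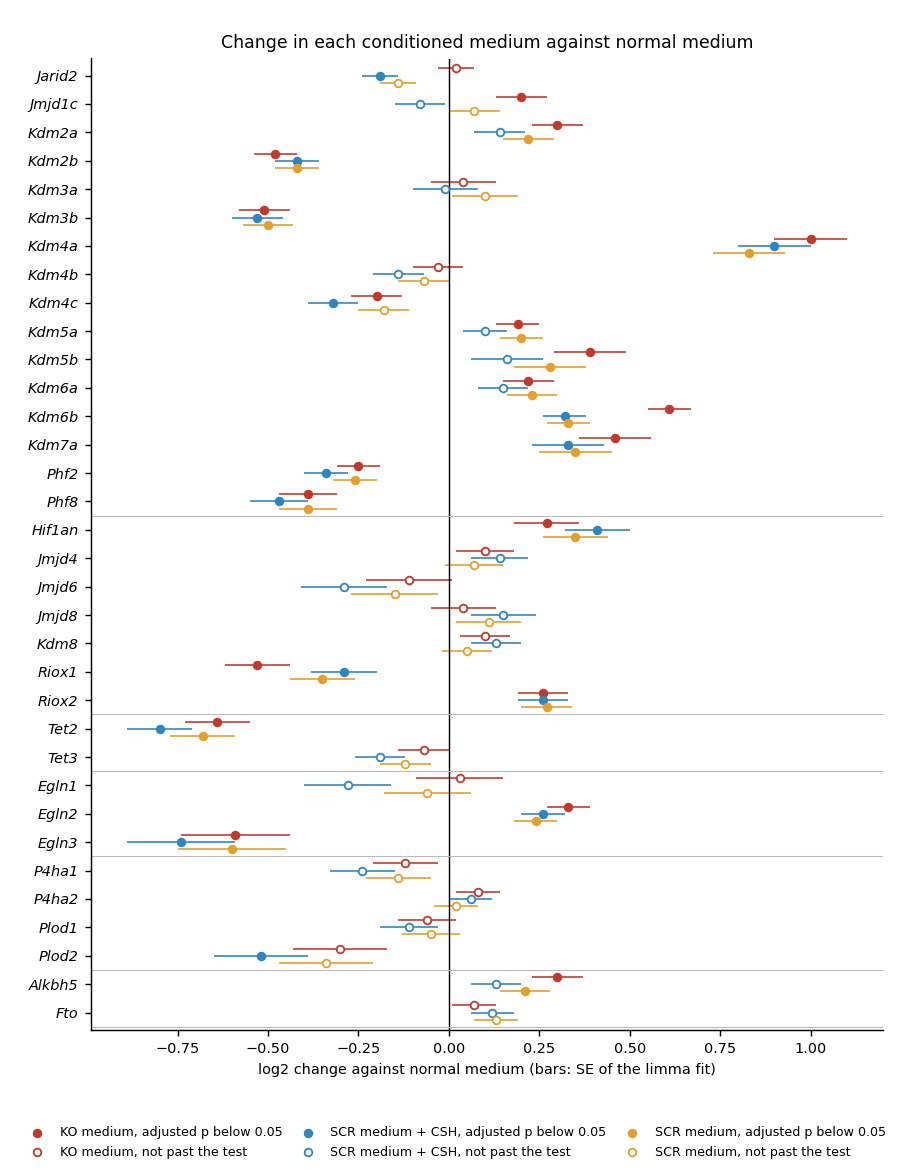
Log2 change (x axis) of the 34 tested genes (y axis, grouped by role) in KO medium, SCR medium with CSH and SCR medium, each against normal medium, with the SE of the limma fit as bars and filled points at an adjusted p below 0.05. The range runs from -0.80 for Tet2 with CSH to 1.00 for Kdm4a in KO medium, and the points of P4ha1, P4ha2 and Plod1 are open in all media.

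The next comparison, KO medium with SCR medium, asks whether loss of JMJD6 in the tumour cells that made the medium bears on these genes. By limma 0 of the 34 were called, where 0.27% of all genes were (0.254% higher and 0.0166% lower), and 2 of the 34 had an unadjusted p below 0.05, where 5.95% of all genes did. The arrays of these media did not overlap for 3 of the 34, against 9.37% of all genes. Kdm6b had the smallest p. It read 7.72, 7.84 and 7.80 in KO medium, against 7.48, 7.48 and 7.57 in SCR medium, with no overlap. The difference was 0.28 (SE 0.06, 95% interval 0.16 to 0.40), and its adjusted p of 0.0886 missed the threshold. It passed with quantile normalisation and with array weights, and in fits without 1 array its adjusted p ran from 0.132 to 0.306. The array weights were 6.14 for SCR replicate 4, against 0.53 and 0.39 for the other SCR arrays. By limma it did not pass with median centring (0.17), the replicate block (0.182) or the 6 arrays of the comparison alone (0.274). With the mean of both Kdm6b probe sets, which the flat second set shrinks by arithmetic, the difference was 0.15 (adjusted p = 0.604 by limma). Jarid2 read 8.48, 8.47 and 8.46 in KO medium, against 8.31, 8.32 and 8.32 in SCR medium, a difference of 0.15 (SE 0.05, adjusted p = 0.594). Those arrays did not overlap either, and the replicates of each medium were within 0.02 of each other.

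For the rest of the 34 the 95% interval, taken gene by gene, gives the range of differences that the scatter of these arrays allows. As that scatter may be technical, the interval may be too narrow for separate cultures or clones. All 34 intervals between KO medium and SCR medium lay within 0.58 on the log2 scale in either direction, the widest bounds being -0.36 and 0.40. Jmjd6 differed by 0.04 (95% interval -0.23 to 0.31), and Riox1 by -0.17 (-0.36 to 0.01), Kdm4a by 0.17 (-0.05 to 0.39), Tet2 by 0.04 (-0.15 to 0.23) and Egln3 by 0.01 (-0.32 to 0.34).

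CSH added to SCR medium was tested against SCR medium to ask whether the receptor block bears on these genes. By limma 0 of the 34 were called and 0% of all genes were. At an unadjusted p below 0.05 there were 0 of the 34, beside 6.24% of all genes, and 5 of the 34 had arrays that did not overlap, beside 8.59% of all genes. The smallest p values belonged to Jmjd1c and Kdm4c. Jmjd1c read 11.36, 11.46 and 11.33 with CSH, against 11.57, 11.45 and 11.58 in SCR medium, and the groups overlapped by 1 array. The difference was -0.15 (SE 0.07, adjusted p = 0.805). Kdm4c read 8.42, 8.35 and 8.34 with CSH, against 8.54, 8.43 and 8.56 in SCR medium, and just failed to overlap, with a difference of -0.14 (SE 0.07, adjusted p = 0.841). Kdm6b was at 7.48, 7.56 and 7.46 with CSH, beside 7.48, 7.48 and 7.57 in SCR medium, a difference of -0.01 with an interval from -0.13 to 0.11. All 34 intervals lay within -0.47 and 0.29. The median difference over the 34 was -0.07, beside 0.01 over all genes.

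A direct comparison was made between KO medium and CSH-treated SCR medium. Of the 34 genes 1 was called, Kdm6b, that is 2.94%, against 1.9% of all genes (1.21% higher and 0.695% lower). It was higher in KO medium by 0.29 (SE 0.06, 95% interval 0.17 to 0.41, adjusted p = 0.0227 by limma), with the arrays given above not overlapping. The call was lost without KO replicate 2 or 3 or any of the CSH arrays, at an adjusted p of up to 0.0953. By limma it was also lost with median centring (0.0548), with the replicate block (0.0557) and with the 6 arrays of the comparison alone (0.0714). With the mean of both Kdm6b probe sets it was lost too, and the difference was 0.13 (adjusted p = 0.258 by limma). The flat second set shrinks that mean difference by arithmetic, so this loss is no separate check. Next came Jmjd1c (0.28, SE 0.07, adjusted p = 0.0618), Jarid2 (0.21, SE 0.05, adjusted p = 0.0723), Riox1 (-0.24, adjusted p = 0.192) and Egln1 (0.31, adjusted p = 0.229), which did not pass. Jmjd1c and Jarid2 did pass with quantile normalisation and with array weights, at an adjusted p down to 0.0194 and 0.0294 by limma. Neither passed in any fit that left out 1 array. In all 8 of the 34 had an unadjusted p below 0.05, beside 15.7% of all genes, and for 8 the arrays did not overlap, beside 21.8% of all genes. On the second Kdm6b probe set the level was 4.74 ± 0.06 for KO medium and 4.77 ± 0.10 for SCR medium with CSH.

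**Figure D4:**
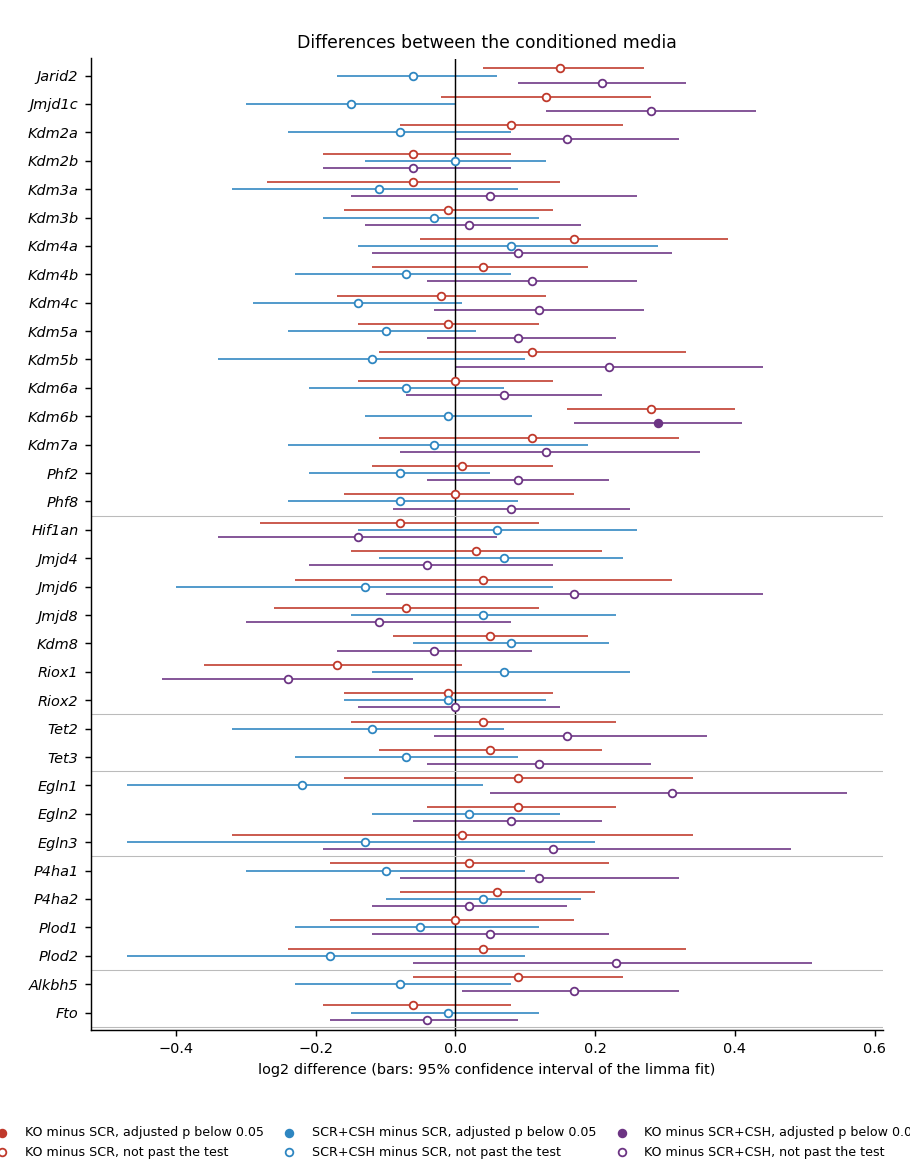
Log2 differences (x axis) of the 34 tested genes (y axis) for KO medium minus SCR medium, SCR medium with CSH minus SCR medium, and KO medium minus SCR medium with CSH, with 95% confidence intervals of the limma fit as bars. Kdm6b holds the single filled point (0.29, adjusted p below 0.05), and the bounds of all intervals lie between -0.47 and 0.56.

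Other genes of the same pathways were counted from lists, beginning with SCR medium against normal medium by limma. Of the other 2-oxoglutarate oxygenases, 8 of 21 tested rose and 3 fell (52.4%, beside 35.2% of all genes, median 0.12). Phyhd1, a relative of the peroxisomal phytanoyl-CoA hydroxylase, rose by 0.99, Alkbh7, a mitochondrial AlkB protein, by 0.83, and P3h1, a collagen prolyl hydroxylase, by 0.47. Asph, an aspartyl hydroxylase, fell by 0.65. In the HIF list, 6 of 21 rose and 4 fell (47.6%), with a median of 0.00. Vegfa, the vascular growth factor, rose by 1.32, Ero1a, an oxidase of protein folding, by 0.96, and Hif1a by 0.31, while the vasodilator peptide gene Adm fell by 1.26. In KO medium against SCR medium 2 of these 21 were called, Ddit4 (0.61, adjusted p = 0.0263) and Vegfa (0.39, adjusted p = 0.0332), where 0.27% of all genes were called.

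Among genes that make or use 2-oxoglutarate, succinate and fumarate, 2 of 21 rose and 8 fell (47.6%, median -0.14). Idh2, the mitochondrial isocitrate dehydrogenase that yields 2-oxoglutarate, fell by 0.90, Fh1, fumarase, by 0.77, and the isocitrate dehydrogenase subunit genes Idh3g and Idh3b by 0.55 and 0.43. Histone methyltransferases, polycomb and LSD demethylases, which act with or against the JmjC erasers, had 3 of 24 higher and 7 lower (41.7%, median -0.10). Setd7 (-0.72), Kmt2a (-0.60), Kmt2c (-0.47) and Ehmt2 (-0.44), all lysine methyltransferases, had the smallest p of the list.

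In the list of DNA methylation and base repair, 2 of 12 rose and 4 fell (50%, median -0.023). The methyltransferase genes Dnmt1 (-1.42) and Dnmt3a (-0.98) fell beside Tet2, as did Gadd45b (-1.94), while Gadd45a rose by 2.17. Of the RNA m6A machinery, 3 of 12 rose and 0 fell (25%, median 0.10), namely Mettl3, the catalytic methyltransferase (0.56), Igf2bp3 (0.54) and Rbm15 (0.25). Of the collagen chain and folding genes, 7 of 15 could be tested, 1 rose, Ppib (0.22), and 1 fell, Colgalt1 (-0.56).

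Against normal medium, 39.1% of all genes were called in KO medium and 35.8% with CSH, and the same lists are set beside these shares. Of the 21 other oxygenases, 9 rose and 3 fell in KO medium (57.1%), and 9 rose and 4 fell with CSH (61.9%). Of the 21 genes of the HIF list, 9 rose and 4 fell in KO medium (61.9%), and 5 rose and 6 fell with CSH (52.4%). Among the 21 metabolism genes 2 rose and 10 fell in KO medium (57.1%), and 3 rose and 7 fell with CSH (47.6%). The 24 histone methyltransferase, polycomb and LSD genes had 3 higher and 8 lower in KO medium (45.8%), and 2 higher and 12 lower with CSH (58.3%). For the 12 DNA methylation genes the counts were 2 higher and 4 lower in KO medium (50%), and 3 higher and 4 lower with CSH (58.3%). In both media 3 of the 12 m6A genes rose and 0 fell (25%), and 1 of the 7 collagen genes rose and 1 fell (28.6%), which are shares below those of all genes. Between CSH-treated and plain SCR medium 0 genes of these lists were called by limma. At an unadjusted p below 0.05, where 6.24% of all genes lay, there were 4 of 21 in the HIF list, 1 of 21 in the metabolism list, 1 of 24 in the methyltransferase list, 1 of 12 in the DNA methylation list and 0 in the other lists.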

How the data were processed

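Total RNA of RAW264.7 cells was measured on 12 Affymetrix arrays. The authors deposited log2 signals for 65528 probe sets, made with RMA in Affymetrix Expression Console with build mm10, per the submitters' processing notes, whereas software versions were not given in the sources used here. RMA pulls arrays toward a common distribution, so a shift shared by all genes would not be seen.

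Probe sets were named through the platform annotation, with symbols updated from RefSeq (GRCm38.p6). Of them, 31026 had 1 gene, 1470 had several and 33032 had none. A gene with several probe sets was represented by 1 of them, with their mean as an alternative. Genes above the array median in at least 3 arrays (18122) were fitted with limma 3.58.1 (R 4.3.3) on 4 group means over all 12 arrays, with moderated tests, 8 residual degrees of freedom and Benjamini-Hochberg adjustment. The median residual SD was 0.0964. The fit was tested on simulated data. No pair of arrays shared more than 3.23% identical values, so all were kept.

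Samples were grouped by their labels. Replicate numbers are shared between groups, but nothing says that they mark a shared culture or day. Correlations of the deviations of same-numbered arrays ran from -0.07 to 0.29 over 12 pairs, with a median of 0.07. Over the 42 other pairs they ran from -0.23 to 0.21, with a median of -0.045. These values do not settle whether same-numbered arrays share a culture or day. The numbers were not used as a block in the main results, and a fit with the block is given as an alternative.

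The genes and the pathway lists were chosen with earlier results of these data known. Values by array are given for Jmjd6, both Kdm6b probe sets, genes called between conditioned media (or the 2 with the smallest p where there were none) and the 12 genes with the smallest p in SCR medium against normal medium. From each pathway list up to 4 called genes with the smallest p in that comparison are named. Alternatives were quantile normalisation, median centring, other filters, all probe sets averaged, array weights, no variance trend, other thresholds, the arrays of a comparison alone, a replicate block and each array left out. Promoters were searched with Python 3.11.15.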

Additional observations from a re-analysis of the deposited data

How the results depend on the processing

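None of the 55 called differences changed sign under the alternatives run, whereas 48 of all 204 differences, each of them not called, took both signs. Over these fits 2948 values kept their side of the threshold, 84 lost it and 22 gained it. Leaving out 1 array at a time gave 12 to 19 calls of the 34 in SCR medium against normal medium (18 in the full fit), 16 to 19 in KO medium (20) and 14 to 16 with CSH (16). It gave 0 to 0 for KO medium against SCR medium and for CSH against SCR medium, and 0 to 1 for KO medium against SCR medium with CSH. With median centring the calls against normal medium were 13 in SCR medium, 17 in KO medium and 15 with CSH. With the 6 arrays of each comparison alone they were 13, 17 and 18. In SCR medium these 2 fits called 5510 and 5636 of all 18122 genes, beside 6370 in the full fit. Requiring an observed fold of at least 1.5 beside the adjusted p left 3 calls in SCR medium, 4 in KO medium and 3 with CSH, each against normal medium, and 0 between KO medium and SCR medium with CSH. A limma test against a minimum fold of 1.5, chosen after seeing the data, left 0, 1, 0 and 0 in the same comparisons. KO medium against SCR medium had 1 call with quantile normalisation, 1 with array weights and 1 at an adjusted p below 0.1, where the full fit had 0. KO medium against SCR medium with CSH had 3 calls with quantile normalisation, 3 with array weights and 3 at an adjusted p below 0.1, but 0 with median centring, 0 with the mean of all probe sets and 0 with the 6 arrays of the comparison alone, where the full fit had 1. With the mean of all probe sets, the flat second Kdm6b set shrinks the Kdm6b difference by arithmetic. The cause of the other shifts was not tested. With the replicate number as a block the calls were 15 in SCR medium, 19 in KO medium and 18 with CSH against normal medium, 0 for KO medium and 0 for CSH against SCR medium, and 0 for KO medium against SCR medium with CSH. The block added Jmjd6, Tet3, Egln1 and P4ha1 to the calls with CSH against normal medium, and removed Kdm7a and Riox1 from them. Over all genes called between KO medium and SCR medium with CSH, 63.5% were higher in KO medium, and 77.9% with median centring. With 3 arrays per medium the precision is limited by their number, and Kdm8 and P4ha2 lie near the array median.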
